A study of Mus musculus with 18 samples.

Results

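The genes described here are 35 mouse genes whose proteins work in the nucleolus in making ribosomes, from RNA polymerase I through rRNA modification and processing to pre-ribosome assembly. They were chosen by name, with earlier results of these data known, and all 35 were found among the 53379 gene rows of the count table. RNA was sequenced from bone marrow neutrophils of 10-week-old mice, sorted by flow cytometry. The mice were wild-type (WT) or CIS-/-, that is labelled as lacking CIS (gene Cish), a protein of the SOCS family that restrains cytokine signalling through JAK and STAT proteins. The cells were taken directly after the sort (unstimulated) or after 4 h or 24 h in medium with GM-CSF (100 ng/mL), a cytokine that activates neutrophils and keeps them alive. There are 6 groups of 3 libraries: WT unstimulated, WT at 4 h, WT at 24 h, and the same 3 states of the mice labelled CIS-/-. One of the labels' protocols gives 42 h in place of 24 h, and 24 h, as in the sample titles, is used here. No group was cultured without GM-CSF, so time in culture and GM-CSF cannot be told apart. The labels do not say whether replicates come from separate mice, so a p-value here reflects only how these libraries vary, which may be technical.

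A ribosome begins in the nucleolus, where RNA polymerase I transcribes the rRNA genes into a long precursor. Small nucleolar ribonucleoproteins (snoRNPs) guide its modification: those of the box C/D class carry the methyltransferase fibrillarin, and those of the box H/ACA class carry the pseudouridine synthase dyskerin. Large complexes of processing factors then fold and cut the precursor into the RNAs of the small and large subunits. Cells that grow or divide make many ribosomes, and Myc is a known activator of many of these genes. The mature neutrophil does not divide, and its nucleolus is small.

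Cish goes against the genotype label in 1 state. In the unstimulated libraries it stood at 6.500 ± 0.019 CPM (counts scaled to the TMM-adjusted library total; mean ± SD, n = 3) in WT and at 18.7 ± 1.1 in those labelled CIS-/-. At 4 h it was 1149 ± 9.3 in WT and 240 ± 3.2 in the libraries labelled CIS-/-, and at 24 h 1060 ± 7.4 and 238 ± 5.1. Which bases of the gene are deleted is not in the labels. Library totals ran from 12170524 to 22539858 counts. The neutrophil marker list was high in every library, with summed levels of 96516 to 99492 CPM unstimulated and 32890 to 37270 at 24 h. B cell markers summed to at most 2.84 CPM and T and NK cell markers to at most 1.01. Replicate 1 of the libraries labelled CIS-/- at 24 h stood apart from its group: its counts differed from those of replicates 2 and 3 by chi-square values of 6.82 and 8.46 per degree of freedom, against 2.40 between replicates 2 and 3. In bulk samples, fewer cells of a type and less RNA per cell cannot be told apart.

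Most of the 35 genes were at low levels in these cells. Over all libraries they hold 128544 counts. Their mean level was under 1 CPM for 6 genes, between 1 and 10 for 22 and over 10 for 7. Per kilobase of merged exons, Ncl was the most abundant at a mean of 12.5 CPM per kb, followed by Nhp2 at 8.38, Polr1a at 8.33, Heatr1 at 7.50 and Npm1 at 6.12. Wdr12 was at 0.0407 CPM per kb and Utp20 at 0.0334. The filter on low counts kept 34 of the 35 genes, and Utp20 was not tested.

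Promoter sequence is shown for 4 of the genes, because each carries a motif that recurs in the class. All 4 were among the 25 of 34 tested genes that rose from unstimulated to 24 h in both genotypes, against 29.7% of all genes. RefSeq promoter windows of 300 bases (250 before the start to 50 after it, GRCm38.p6) were matched for 29 of the 35. Searched on both strands, the GC box GGGCGG was in 22 of them (75.9%), against 38.2% of the windows of 27025 genes. That background holds all genes with a RefSeq window, not only the 11569 genes tested here. Among the 22 were also Bysl, Rrp1b and Ebna1bp2, which fell in WT by 24 h. The ETS motif CCGGAAGT was in 7 (24.1%, against 4.31% of all), and the E-box CACGTG, the motif that Myc and Max bind, in 5 (17.2%, against 8.09%). The motif of NRF1, GCGCA followed directly by its reverse complement, was in 0 (0%, against 1.07%). In a list of other ribosome biogenesis genes, 112 had a window, and 67% of these held the GC box, 27.7% the ETS motif, 18.8% the E-box and 3.57% the NRF1 motif. These are counts of letters in a window and say nothing on whether a factor binds there.

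The stretches below are printed 5′ to 3′ on the gene's strand, all upstream of the annotated start, with motif letters in capitals. In Gnl3 (chr14:31019153-31019381, minus strand) and Ncl (chr1:86359482-86359608, minus strand) the capitals mark the GC box or its reverse complement, with 10 matches in Gnl3, some overlapping, and 3 in Ncl. In Nop2 (chr6:125131783-125131868, plus strand) they mark an E-box 60 to 55 bases before the start. In Gar1 (chr3:129831397-129831480, minus strand) they mark the reverse complement of the ETS motif, 44 to 37 bases before the start.
Gnl3: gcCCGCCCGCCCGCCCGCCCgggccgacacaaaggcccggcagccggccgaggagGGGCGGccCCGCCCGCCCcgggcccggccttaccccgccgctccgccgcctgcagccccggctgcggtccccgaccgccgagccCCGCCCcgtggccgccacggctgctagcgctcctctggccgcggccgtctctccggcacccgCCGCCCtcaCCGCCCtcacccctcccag
Ncl: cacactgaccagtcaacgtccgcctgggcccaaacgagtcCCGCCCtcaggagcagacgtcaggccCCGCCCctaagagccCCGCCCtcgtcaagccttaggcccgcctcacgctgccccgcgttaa
Nop2: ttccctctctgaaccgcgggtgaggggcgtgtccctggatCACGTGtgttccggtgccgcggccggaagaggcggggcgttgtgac
Gar1: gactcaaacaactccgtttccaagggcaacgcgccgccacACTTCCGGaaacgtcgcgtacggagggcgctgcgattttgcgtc

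Across the groups, the ribosome biogenesis genes had their highest mean in the libraries labelled CIS-/- at 24 h: this was so for 28 of the 35. The lowest mean was in WT unstimulated for 15 genes and in the libraries labelled CIS-/- at 4 h for 9. The summed level of the 35 was 373 ± 1.8 CPM (SD, n = 3) in WT unstimulated, 465 ± 6.3 at 4 h and 336 ± 2.9 at 24 h. In the libraries labelled CIS-/- the sum was 415 ± 4.6, 436 ± 6.5 and 683 ± 18. In WT the sum is thus lowest at 24 h, although most of the genes had risen by then: Ncl, Polr1a and Heatr1 make up 72.8% of it unstimulated, 77.1% at 4 h and 47.4% at 24 h. The other 32 summed to 102 ± 2.1, 107 ± 2.3 and 177 ± 1.1 CPM in WT, and to 121 ± 4.1, 103 ± 5.2 and 391 ± 12 in the libraries labelled CIS-/-. Without those 3 genes the sum was highest at 24 h in both genotypes, and at 4 h it was below the unstimulated libraries under the CIS-/- label, without overlap, but not in WT. As a share of all counts, with no scaling factor, the 35 genes held 0.0387%, 0.0427% and 0.0431% in WT and 0.0419%, 0.0397% and 0.0606% under the CIS-/- label, in the same order of times.

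**Figure D1:**
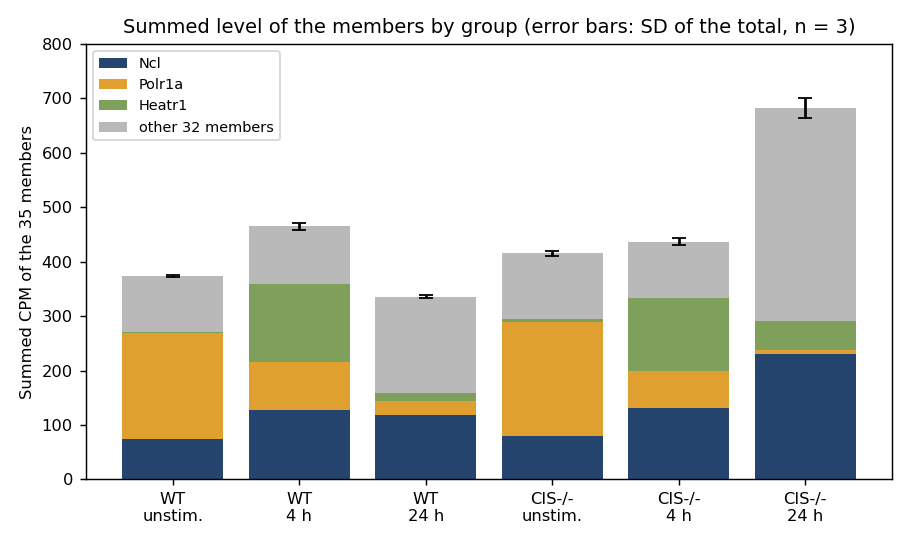
Stacked bars of the summed TMM-scaled CPM (linear axis from 0) of Ncl, Polr1a, Heatr1 and the other 32 genes in each of the 6 groups, as means of 3 libraries, with the SD of the total as the error bar. The bar for CIS-/- at 24 h is the tallest at 683 ± 18 CPM, of which the other 32 genes make up 391 ± 12.

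In WT cells, 4 h with GM-CSF split the genes: 11 of the 34 tested rose and 8 fell, at a median log2 fold change of 0.29 against −0.02 over all genes. Of all genes tested, 38.1% were called higher and 38.2% lower, so both shares of these genes (11 and 8 of 34) were below the background. By 24 h, 25 of 34 were higher than in unstimulated WT cells and 4 were lower, at a median of 1.20 against 0.05. The background was 40.7% higher and 37.7% lower. A change of at least 2-fold was called higher for 18 genes and lower for 3, against 16.9% and 17.7% of all genes. Between 4 h and 24 h, 21 rose and 5 fell in WT, against a background of 35.7% and 39.6%. The members that fell from unstimulated to 24 h were Polr1a, Bysl, Rrp1b and Ebna1bp2.

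In the libraries labelled CIS-/-, 9 genes rose and 11 fell by 4 h, against a background of 37.9% and 39.1% (7 and 15 with scaling by library totals alone). By 24 h, 29 were higher and 3 lower than unstimulated, at a median log2 fold change of 1.92 against −0.01 over all genes, with 42.1% and 42% of all genes called. From 4 h to 24 h, 30 rose and 3 fell, against 37.8% and 37.9%. A rise of at least 2-fold was called for 25 and such a fall for 2, against 17.7% and 18.1% of all genes. At 24 h, 25 genes were higher than unstimulated in both genotypes, 3 were lower in both, and 0 were called in opposite directions by the edgeR quasi-likelihood test. Of all genes, 29.7% were higher in both at 24 h, 29.6% lower in both and 10% opposite. At 4 h, 7 were higher in both and 8 lower in both, against 33.7% and 34% of all genes, and 0 were opposite, against 0.838%. With libraries scaled by their totals alone, the median of all genes in WT was 0.36 for 24 h against unstimulated (0.05 with TMM) and 0.45 for 24 h against 4 h (−0.04 with TMM). By that scaling 27 of the 34 rose and 4 fell in WT by 24 h, where 6352 of all genes rose and 3164 fell. From 4 h to 24 h it gave 26 and 4 of the 34, and 6763 and 2506 of all genes.

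**Figure D2:**
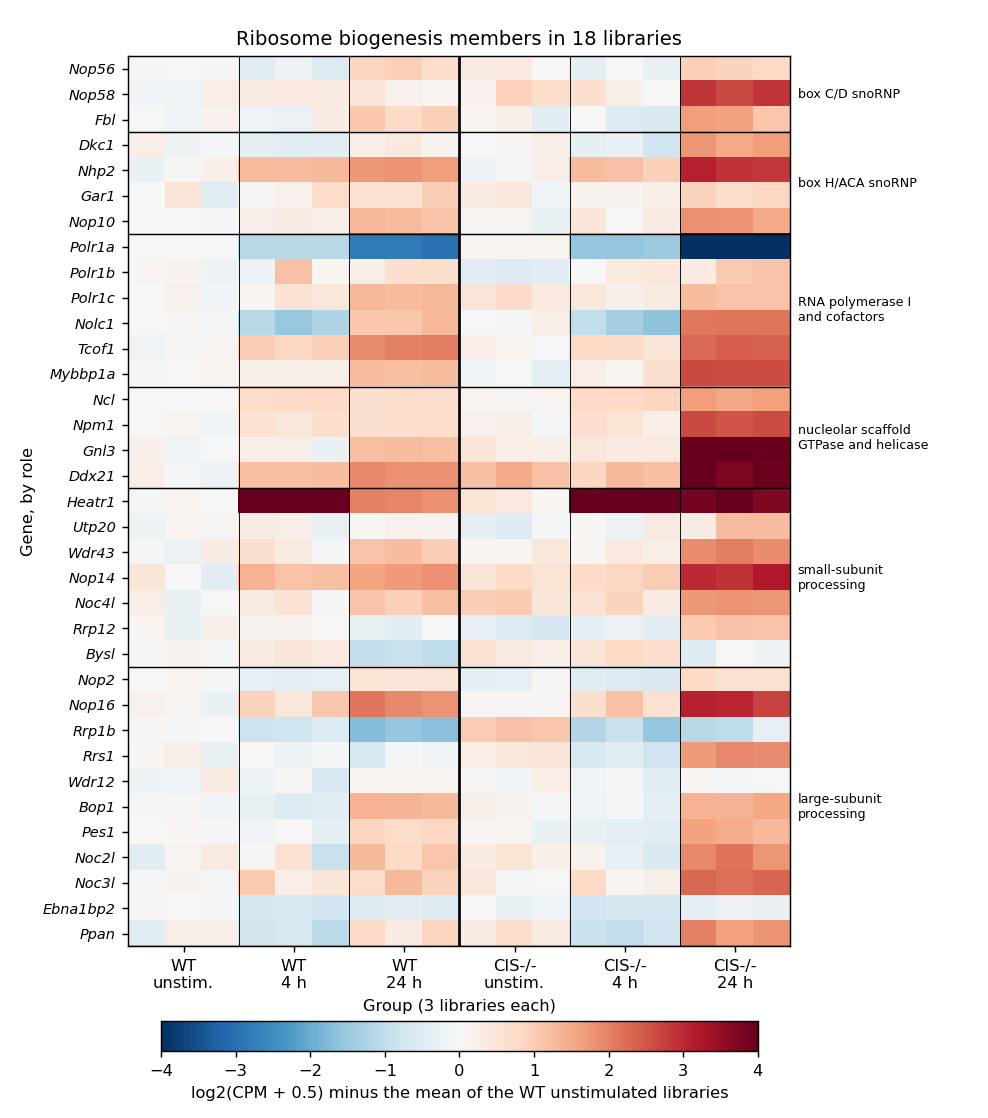
Heat map of the 35 genes, ordered by role, against the 18 libraries; colour is log2(CPM + 0.5) minus its mean over the unstimulated WT libraries, capped at 4 in either direction. Most rows are highest in the 3 libraries labelled CIS-/- at 24 h, and the row of Polr1a runs the other way.

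The genotypes differed most at 24 h. There, 26 of the 34 genes were higher in the libraries labelled CIS-/- than in WT and 1, Polr1a, was lower, at a median log2 difference of 0.95 against −0.02 over all genes. The background was 38.2% higher and 38.1% lower. A difference of at least 2-fold was called higher for 16 genes and lower for 1, against 18.2% and 16% of all genes. Without replicate 1 of the libraries labelled CIS-/-, which stood apart, 28 were higher and 1 lower. The count depends on the scaling: the scaling (TMM) factors were 1.28 to 1.29 in WT and 0.884 to 0.894 in the libraries labelled CIS-/- at 24 h. With totals alone the median of all genes was −0.55, 2558 genes were called higher and 6999 lower, and of the 34 genes 18 were called higher and 6 lower, at a median of 0.42.

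At 4 h, by contrast, the edgeR quasi-likelihood test called 0 genes higher and 1, Polr1a, lower in the libraries labelled CIS-/-, at a median of −0.09, where 8% of all genes were called higher and 9.3% lower. At an unadjusted p under 0.05 the edgeR counts were 1 and 3, and DESeq2 called 0 and 1. Before culture the same test gave 8 higher and 0 lower, at a median of 0.18, against 12.9% and 9.41% of all genes, and 7 and 2 with totals alone. At an unadjusted p under 0.05 these edgeR counts were 12 and 2, and DESeq2 called 8 and 0. The 8 were Nop58, Polr1a, Polr1c, Ddx21, Nop14, Noc4l, Bysl and Rrp1b. Without WT unstimulated replicate 2, 5 genes were called higher and 1 lower. This direction rests on the unstimulated libraries labelled CIS-/-, in which Cish was not lower than in WT.

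Whether the change with time itself differed between genotypes was tested as an interaction. For the step from 4 h to 24 h, the log2 change was more positive in the libraries labelled CIS-/- for 24 genes and more negative for 1, Polr1a, at a median of 1.06, against 33.9% and 32.1% of all genes called. With totals alone these counts were 14 and 5. From unstimulated to 24 h the counts were 17 and 2, against 31.6% and 33.1%, and 11 and 5 with totals alone. From unstimulated to 4 h the edgeR interaction test called 0 genes higher and 7 lower, against 5.32% and 10.4%. At an unadjusted p under 0.05 the counts were 0 and 9, and DESeq2 called 0 and 6. Leaving out 1 library, 3 were called lower without replicate 2 of the unstimulated libraries labelled CIS-/-, or 4 without WT unstimulated replicate 3.

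**Figure D3:**
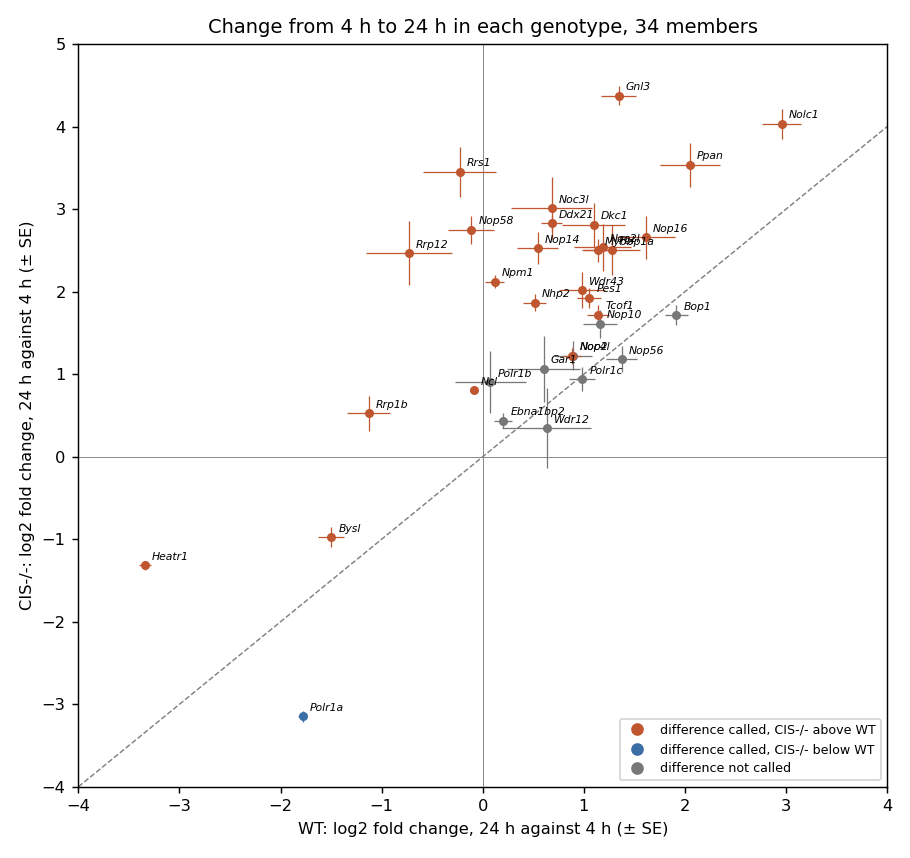
Log2 fold change from 4 h to 24 h in WT (horizontal axis) and in the libraries labelled CIS-/- (vertical axis) for the 34 tested genes, with SE as error bars, coloured by the call of the interaction test; the dashed line marks equal change. Most points lie above the line, 24 of them with an interaction called higher (14 with totals alone), and Polr1a lies below it.

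RNA polymerase I and its cofactors did not move as 1 block. Polr1a encodes the largest subunit of the polymerase (chr6:71909053-71984935). It was at 193, 191 and 197 CPM in unstimulated WT libraries, 88.7, 89.3 and 89.2 at 4 h, and 26.6, 26.9 and 23.8 at 24 h. With the CIS-/- label it was at 210, 208 and 210, then 66.4, 65.8 and 70.8, then 7.52, 8.09 and 7.41 CPM. No group overlapped another, and the level fell at each step in both genotypes. Polr1a fell by 1.12 ± 0.04 (SE) on the log2 scale by 4 h and by 2.90 ± 0.05 by 24 h in WT (edgeR quasi-likelihood, adjusted p = 3.65e-53). It fell by 4.78 ± 0.06 in the libraries labelled CIS-/-, and stood −1.76 ± 0.08 from WT at 24 h (adjusted p = 9.2e-30).

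The second subunit, Polr1b, was at a low level, with group means of 0.231 to 1.35 CPM, and Polr1c, a subunit shared with RNA polymerase III, went from 3.02 ± 0.38 CPM unstimulated to 8.15 ± 0.16 at 24 h in WT. At 24 h neither passed the test between genotypes: the log2 difference was 0.48 for Polr1b and −0.13 for Polr1c. The polymerase's subunits thus went in different directions, Polr1a falling while Polr1b and Polr1c rose by 0.97 and 1.44 on the log2 scale in WT by 24 h.

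Tcof1 encodes treacle, a nucleolar phosphoprotein that serves rRNA transcription and modification. Its levels in WT were 2.38, 2.82 and 2.95 CPM unstimulated, 5.87, 5.23 and 5.71 at 4 h, then 11.5, 12.6 and 12.8 at 24 h. Under the CIS-/- label they were 3.35, 2.92 and 2.77, then 5.13, 5.01 and 4.17, then 14.8, 16.8 and 16 CPM. The gene rose at each step in both genotypes, without overlap between times. The rise to 24 h in WT was 2.17 ± 0.12 (log2), and the genotype difference at 24 h was 0.36 ± 0.09 (adjusted p = 0.000193), which reversed to −0.17 with totals alone.

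Nolc1 encodes Nopp140, a chaperone of snoRNPs in the nucleolus. In WT it was at 2.87, 2.96 and 2.79 CPM unstimulated, 1.07, 0.68 and 0.964 at 4 h, then 6.56, 6.61 and 7.9 at 24 h. With the CIS-/- label it was at 2.92, 2.73 and 3.48, then 1.22, 0.806 and 0.596, then 13.9, 14.3 and 14.5 CPM. This gene dipped at 4 h and then passed its starting level in every 24 h library. Nolc1 changed by −1.67 ± 0.24 on the log2 scale by 4 h in WT and then by 2.96 ± 0.19 from 4 h to 24 h, against 4.03 ± 0.18 in the libraries labelled CIS-/-. The genotype difference at 24 h was 1.03 ± 0.11 (adjusted p = 3.49e-13). Mybbp1a, a nucleolar protein that binds the polymerase and Myb, went from 2.12 ± 0.18 to 5.65 ± 0.12 CPM in WT and from 1.84 ± 0.34 to 15.5 ± 0.19 in the libraries labelled CIS-/- by 24 h. In all, 3 of these 6 genes were higher under the CIS-/- label at 24 h and 1 was lower, against 38.2% and 38.1% of all genes. Of the 3, Tcof1 changed sign and did not pass with totals alone.

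The abundant scaffold proteins, GTPase and helicase of the nucleolus were all 4 higher at 24 h in both genotypes and higher in the libraries labelled CIS-/- than in WT at 24 h, at a median log2 difference of 2.01. Of all genes, 29.7% were higher at 24 h in both genotypes, and 38.2% were higher under the CIS-/- label than in WT. Ncl (chr1:86344719-86359400) encodes nucleolin, which binds the rRNA precursor. It was at 73.9, 75.6 and 74.6 CPM in unstimulated WT libraries, 125, 126 and 129 at 4 h, then 116, 122 and 119 at 24 h. Under the CIS-/- label it was at 81.2, 80.6 and 80.1, then 130, 130 and 136, then 237, 218 and 235 CPM. In WT the 4 h libraries were the highest, just above those at 24 h, while the libraries labelled CIS-/- went up again by 24 h. The genotype difference in Ncl at 24 h was 0.95 ± 0.04 (log2, adjusted p = 4.52e-32). The WT change from 4 h to 24 h was −0.09 ± 0.04 (adjusted p = 0.0365), and it reversed to 0.40 with totals alone.

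Npm1 (chr11:33152287-33163206) encodes nucleophosmin, a chaperone of ribosomal proteins and of nucleolar structure. WT libraries held 7.46, 8.07 and 6.98 CPM unstimulated, 11.4, 10.4 and 12.5 at 4 h, then 11.9, 12.5 and 12.6 at 24 h. With the CIS-/- label they held 8.46, 8.88 and 7.16, then 12.3, 11.3 and 9.1, then 49.8, 45 and 47.9 CPM. The 4 h and 24 h levels of Npm1 overlapped in WT, and the 24 h libraries labelled CIS-/- were far above all others. The difference between genotypes at 24 h was 1.95 ± 0.07 (log2, adjusted p = 2.78e-33).

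Gnl3 (chr14:31012433-31019152) encodes nucleostemin, a nucleolar GTPase known from stem and cancer cells. It was at 1.96, 1.41 and 1.61 CPM in unstimulated WT libraries, 1.98, 1.97 and 1.29 at 4 h, then 4.47, 4.56 and 4.41 at 24 h. With the CIS-/- label it was at 2.49, 2.09 and 2, then 2.43, 2.19 and 2.3, then 50.1, 44.4 and 48 CPM. Unstimulated and 4 h levels overlapped in both genotypes, and the rise came between 4 h and 24 h. At 24 h the genotypes differed by 3.41 ± 0.09 (log2, adjusted p = 9.54e-42), the greatest genotype difference among the 34 tested genes in the 3 genotype comparisons.

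Ddx21 (chr10:62580251-62602281) encodes an RNA helicase that acts in rRNA transcription and processing. WT libraries were at 3.73, 2.89 and 2.47 CPM unstimulated, 7.62, 7.55 and 7.8 at 4 h, then 12.8, 12 and 12 at 24 h. Those labelled CIS-/- were at 7.55, 9.45 and 7.41, then 5.83, 8.12 and 7.57, then 55.6, 47.1 and 52.5 CPM. Ddx21 was already higher in unstimulated libraries labelled CIS-/-, by 1.43 ± 0.15 (log2, adjusted p = 2.95e-12), and these overlapped with their 4 h libraries. At 24 h the difference was 2.08 ± 0.08 (adjusted p = 7.88e-34).

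**Figure D4:**
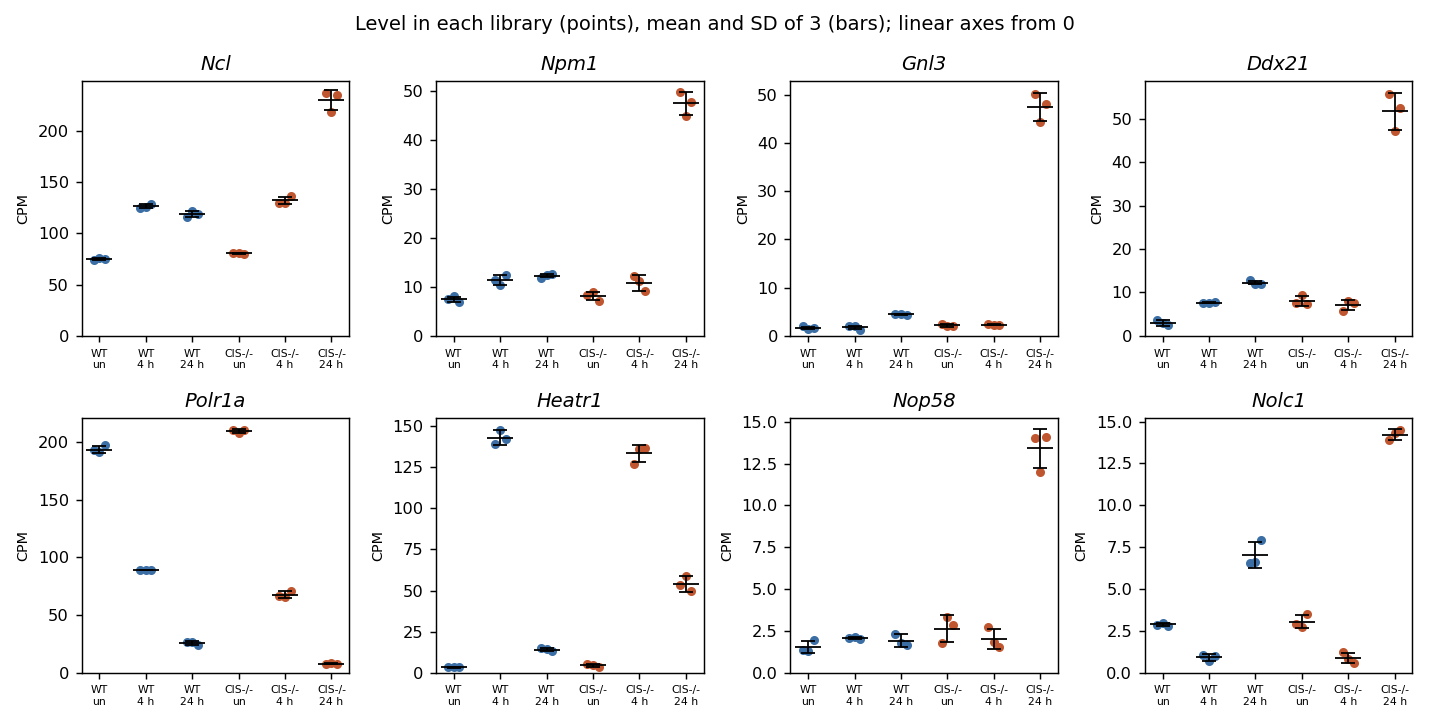
Level in TMM-scaled CPM (linear axes from 0) of Ncl, Npm1, Gnl3, Ddx21, Polr1a, Heatr1, Nop58 and Nolc1 in each library, by group; points are libraries, and bars are the mean and SD of 3. At 24 h the libraries labelled CIS-/- are above WT for 7 of the 8 genes, and below it for Polr1a.

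The box C/D snoRNP genes encode the core proteins that sit on each guide RNA. Nop56 was at 3.49, 3.63 and 3.81 CPM in unstimulated WT libraries, 2.59, 3.06 and 2.33 at 4 h, then 7.03, 7.44 and 6.28 at 24 h. Under the CIS-/- label it was at 4.87, 4.95 and 3.67, then 2.7, 3.57 and 2.98, then 7.6, 7.17 and 6.76 CPM. Nop56 was lowest at 4 h and highest at 24 h in each genotype, and the genotypes overlapped at 24 h. Its rise to 24 h in WT was 0.93 ± 0.13 (log2, adjusted p = 8.65e-09), and the genotype difference at 24 h was 0.04 ± 0.12 (adjusted p = 0.801).

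Nop58, the partner of Nop56 on the guide RNA (chr1:59684971-59719044), behaved otherwise. WT libraries held 1.35, 1.28 and 1.93 CPM unstimulated, 2.06, 2.11 and 2.01 at 4 h, then 2.33, 1.77 and 1.62 at 24 h. Those labelled CIS-/- held 1.76, 3.3 and 2.84, then 2.7, 1.84 and 1.53, then 14, 12 and 14.1 CPM. In WT all 3 times were close and the change to 24 h did not pass the test (0.30 ± 0.23, adjusted p = 0.22), whereas the 24 h libraries labelled CIS-/- stood above every other library. The genotype difference in Nop58 at 24 h was 2.82 ± 0.15 (log2, adjusted p = 2.59e-25), and the interaction from 4 h to 24 h was 2.87 ± 0.30.

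Fbl encodes fibrillarin, the methyltransferase of the particle. It was at 0.856, 0.739 and 1.07 CPM unstimulated, 0.762, 0.68 and 1.21 at 4 h, then 2.42, 1.84 and 2.16 at 24 h in WT. Under the CIS-/- label levels were 0.974, 1.14 and 0.516, then 0.87, 0.461 and 0.425, then 3.95, 3.68 and 2.5 CPM. Only the 24 h levels of Fbl stood clear of the earlier times in either genotype, and at 24 h the groups did not overlap. The difference at 24 h was 0.62 ± 0.20 (log2, adjusted p = 0.00486), and it no longer passed with totals alone.

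Of the box H/ACA snoRNP genes, 3 of 4 rose by 24 h in WT and all 4 rose in the libraries labelled CIS-/-, against 40.7% and 42.1% of all genes. At 24 h, 3 were higher in the libraries labelled CIS-/- than in WT, against 38.2% of all genes. Of these, Nop10 changed sign and did not pass with totals alone. Nhp2, a core protein of the particle and of telomerase, was at 2.38, 3.09 and 3.44 CPM in unstimulated WT libraries, 7.77, 7.55 and 7.88 at 4 h, then 10.9, 11.4 and 10.5 at 24 h. In those labelled CIS-/- it was at 2.49, 2.85 and 3.61, then 7.83, 7.2 and 6.13, then 29, 24.9 and 23.9 CPM. Nhp2 rose at each step, and the genotypes overlapped until 24 h. The rise in WT was 1.37 ± 0.15 by 4 h and 1.88 ± 0.13 by 24 h (log2), and the genotype difference at 24 h was 1.23 ± 0.09 (adjusted p = 8.85e-20).

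Nop10, a small core protein of the same particle, was at 1.9, 1.88 and 1.77 CPM unstimulated, 2.21, 2.38 and 2.25 at 4 h, then 5.45, 5.18 and 4.66 at 24 h in WT. Values under the CIS-/- label were 2.01, 2.03 and 1.42, then 2.78, 1.9 and 2.47, then 7.91, 7.63 and 6.16 CPM. Both genotypes were highest at 24 h without overlap between them, yet the genotype difference of Nop10 (0.48 ± 0.13, log2, adjusted p = 0.000967) reversed to −0.06 with totals alone.

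Dkc1 (chrX:75095854-75109777) encodes dyskerin, the pseudouridine synthase. WT libraries held 1.22, 0.739 and 0.859 CPM unstimulated, 0.609, 0.544 and 0.563 at 4 h, then 1.21, 1.36 and 1.08 at 24 h. Those labelled CIS-/- held 0.913, 1.01 and 1.16, then 0.609, 0.691 and 0.34, then 4.34, 3.59 and 4.05 CPM. The WT levels at 24 h overlapped those unstimulated, and in the libraries labelled CIS-/- the 24 h levels were above every other library. Dkc1 differed between genotypes at 24 h by 1.70 ± 0.20 (log2, adjusted p = 1.64e-11). Its exons share 45 bases with the antisense gene Mpp1, which was at 200 ± 1.1 CPM in WT and 1212 ± 43 in the libraries labelled CIS-/- at 24 h. The part of these shared bases in the result was not tested. Gar1, the fourth core protein, was at 1.04 ± 0.25 and 1.13 ± 0.12 CPM at 24 h, a log2 difference of 0.16 that did not pass the test.

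Of the 6 tested small-subunit processing genes, all 6 were higher in the libraries labelled CIS-/- than in WT at 24 h, against 38.2% of all genes. The median log2 difference was 1.20, and with totals alone Bysl and Noc4l no longer passed. Heatr1 (chr13:12395027-12440289) encodes UTP10, a large repeat protein of the small-subunit processome that also serves polymerase I transcription. WT libraries were at 3.12, 3.56 and 3.22 CPM unstimulated, 139, 148 and 142 at 4 h, then 14.9, 14.2 and 13.1 at 24 h. Those labelled CIS-/- were at 4.99, 4.44 and 3.55, then 127, 136 and 137, then 53.4, 59.1 and 49.7 CPM. Heatr1 was highest at 4 h in both genotypes, and at 24 h it had come down in both, further in WT. The rise by 4 h was 5.44 ± 0.08 in WT (log2, adjusted p = 3.33e-54) and 4.94 ± 0.08 in the libraries labelled CIS-/-. From 4 h to 24 h it fell by 3.34 ± 0.06 and by 1.32 ± 0.05, and the genotype difference at 24 h was 1.93 ± 0.07 (adjusted p = 2.36e-35).

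The exons of Heatr1 share 155 bases with Lgals8, a galectin gene on the opposite strand, and Lgals8 moved in the same direction. It was at 29.8 ± 3.1 CPM unstimulated, 103 ± 3.1 at 4 h and 33.7 ± 2.3 at 24 h in WT, and at 65.3 ± 4.1 at 24 h in the libraries labelled CIS-/-. The library kit keeps the strand, but whether the counting used it was not given in the sources used here. In all, 15 of the 35 genes share exon bases with an antisense gene, among them Nhp2 with Rmnd5b, Gnl3 with Pbrm1 and Bop1 with Mroh1. At 24 h in WT, Rmnd5b was at 82.0 CPM, Pbrm1 at 87.2 and Mroh1 at 244. Any part of shared bases in the results for these genes was not tested.

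Bysl encodes bystin, which acts in late small-subunit maturation. It was at 6.42, 7.46 and 6.28 CPM unstimulated, 8.76, 9.52 and 8.84 at 4 h, then 3.12, 3.37 and 3.04 at 24 h in WT. Libraries with the CIS-/- label had 10.2, 8.82 and 8.25, then 9.74, 12 and 11, then 4.5, 6.71 and 5.7 CPM. Bysl was lowest at 24 h in both genotypes, lower in WT. It fell by 1.06 ± 0.13 (log2) from unstimulated to 24 h in WT, and the genotype difference at 24 h was 0.81 ± 0.14 (adjusted p = 1.2e-06). Its exons share 361 bases with the antisense gene Ccnd3, which encodes cyclin D3 and went from 709 ± 1.9 to 779 ± 13 and 304 ± 6.1 CPM in WT and stood at 210 ± 9.96 in the libraries labelled CIS-/- at 24 h. In WT both Ccnd3 and Bysl were highest at 4 h and lowest at 24 h, and at 24 h they differed between genotypes in opposite directions. The part of the shared bases in the result was not tested.

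Rrp12, which serves export of the pre-ribosomes, was at 0.55, 0.336 and 0.645 CPM unstimulated, 0.609, 0.612 and 0.482 at 4 h, then 0.326, 0.243 and 0.49 at 24 h in WT. Those labelled CIS-/- had 0.304, 0.19 and 0.129, then 0.261, 0.346 and 0.255, then 1.55, 1.75 and 1.7 CPM. Only the 24 h libraries labelled CIS-/- were above 1 CPM, and Rrp12 differed there by 2.26 ± 0.33 (log2, adjusted p = 9.94e-09). Among the other members of the group, Nop14 went from 0.595 ± 0.36 to 2.94 ± 0.29 CPM in WT and from 1.11 ± 0.19 to 8.13 ± 1.1 in the libraries labelled CIS-/- by 24 h. Wdr43 stood at 2.63 ± 0.27 CPM in WT and 5.04 ± 0.41 in the libraries labelled CIS-/- at 24 h, and Noc4l at 4.27 ± 0.43 and 7.00 ± 0.18. Utp20, a large scaffold of the same processome, had 0 to 24 counts per library. It was at 0.388, 1.20 and 1.20 CPM in the 24 h libraries labelled CIS-/-, and was left untested.

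Of the 11 large-subunit processing genes, 7 rose and 2 fell by 24 h in WT, against 40.7% and 37.7% of all genes. At 24 h, 8 were higher under the CIS-/- label than in WT and 0 lower, against 38.2% and 38.1%, at a median log2 difference of 0.95. With totals alone Ebna1bp2 reversed, and Pes1 and Noc2l no longer passed. With TMM scaling, no large-subunit gene was lower at an unadjusted p under 0.05 (0 of 11, edgeR). The 3 that did not pass with TMM were Nop2, Wdr12 and Bop1. With totals alone, 6 of the tested ribosome biogenesis genes were called lower under the CIS-/- label at 24 h, Ebna1bp2 among them. Nop2, an rRNA methyltransferase, was at 14.8, 15.6 and 13.8 CPM unstimulated, 11.5, 11.3 and 11.7 at 4 h, then 21.9, 20.8 and 21.2 at 24 h in WT. Under the CIS-/- label levels were 11, 11.7 and 15.3, then 10.6, 10.2 and 9.61, then 25.7, 22.8 and 22.7 CPM. Nop2 was lowest at 4 h and highest at 24 h in both genotypes. At 24 h its genotype groups did not overlap, but the log2 difference of 0.16 ± 0.08 did not pass the test (adjusted p = 0.0551).

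Ebna1bp2, a nucleolar factor of early large-subunit assembly, was at 20.3, 19.6 and 19.2 CPM unstimulated, 11.8, 12.6 and 11.5 at 4 h, then 13.5, 14.1 and 13.7 at 24 h in WT. Values under the CIS-/- label were 19.9, 16.1 and 17.3, then 11.3, 12.2 and 11.9, then 15, 16.6 and 16.4 CPM. The gene was highest before culture in WT, where it changed by −0.72 ± 0.09 (log2) by 4 h. The genotype difference of Ebna1bp2 at 24 h was 0.22 ± 0.08 (adjusted p = 0.0114) and reversed to −0.31 with totals alone.

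Nop16, a factor of large-subunit assembly, was at 0.245, 0.202 and 0.0537 CPM unstimulated, 0.762, 0.408 and 0.884 at 4 h, then 2.42, 1.98 and 1.81 at 24 h in WT. Libraries with the CIS-/- label had 0.183, 0.19 and 0.193, then 0.522, 0.979 and 0.51, then 5.04, 4.97 and 3.85 CPM. Levels rose at each step without overlap between times, from a start near the floor. The rise of Nop16 to 24 h in WT was 3.63 ± 0.38 (log2), and the genotype difference at 24 h was 1.13 ± 0.19.

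Of the PeBoW complex, which is needed for large-subunit rRNA processing, Pes1 was at 10.0 ± 0.42 CPM in WT and 16 ± 1.8 in the libraries labelled CIS-/- at 24 h. Bop1 was at 13.7 ± 0.43 and 14.4 ± 1.0, a log2 difference of 0.09 (adjusted p = 0.38), and Wdr12 at 0.579 ± 0.018 and 0.501 ± 0.041. Members of 1 complex thus differed in whether they passed the test between genotypes, and whether Pes1 differed from Bop1 was not tested. Ppan, an assembly factor, went from 1.40 ± 0.47 to 0.564 ± 0.14 CPM by 4 h and to 2.44 ± 0.55 by 24 h in WT, and stood at 6.07 ± 0.92 in the libraries labelled CIS-/- at 24 h. Noc2l was at 4.01 ± 0.80 and 7.76 ± 1.1 CPM at 24 h in the 2 genotypes, and Noc3l at 0.774 ± 0.27 and 2.62 ± 0.13.

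Rrs1 and Rrp1b are given in every library as well, chosen after their values were seen. Rrs1 (chr1:9545408-9547455), which brings the 5S particle into the pre-ribosome, was at 0.856, 1.01 and 0.537 CPM unstimulated, 0.762, 0.612 and 0.723 at 4 h, then 0.326, 0.73 and 0.687 at 24 h in WT. Those labelled CIS-/- had 1.03, 1.27 and 1.35, then 0.348, 0.461 and 0.255, then 3.64, 4.41 and 4.25 CPM. In WT the 3 times overlapped, while in the libraries labelled CIS-/- the gene dipped at 4 h and then exceeded every other library. The interaction from 4 h to 24 h for Rrs1 was 3.68 ± 0.52 (log2, adjusted p = 7.83e-09). Rrp1b was at 5.69, 5.18 and 5.59 CPM in unstimulated WT libraries, 2.89, 2.92 and 3.62 at 4 h, then 1.3, 1.56 and 1.37 at 24 h. In those labelled CIS-/- it was at 11.6, 12.9 and 12.4, then 2.17, 2.71 and 1.53, then 2.25, 2.48 and 4.25 CPM. This gene fell in both genotypes, by 1.94 ± 0.18 (log2) in WT, and was higher in the libraries labelled CIS-/- both unstimulated (1.16 ± 0.13) and at 24 h (1.15 ± 0.21).

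The rest of the pathway was read from a list of other ribosome biogenesis genes, of which 132 were found and 125 tested. In WT, 43 of them rose and 37 fell by 4 h, and 80 rose and 17 fell by 24 h. The shares at 4 h, 34.4% and 29.6%, were below those of all genes (38.1% and 38.2%), and those at 24 h were 64% and 13.6% against 40.7% and 37.7%. Between genotypes at 24 h, 68 (54.4%, against 38.2% of all genes) were higher under the CIS-/- label and 25 (20%, against 38.1%) lower, at a median log2 difference of 0.36, and from 4 h to 24 h 91 rose and 17 fell in those libraries, against 37.8% and 37.9% of all genes. By role, 30 of 48 tested small-subunit genes were higher and 7 lower at 24 h, and 31 of 47 large-subunit genes were higher and 8 lower. Of the exosome and rRNA nuclease genes, 2 of 13 were higher and 6 lower, the latter (46.2%) near the 38.1% of all genes called lower.

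Among these other genes, Sdad1, a large-subunit assembly factor, went from 0.832 ± 0.15 CPM unstimulated to 33.4 ± 0.93 at 4 h in WT and stayed near that level, at 30 ± 0.87, at 24 h. Exosc7, a core subunit of the RNA exosome, went from 14.7 ± 0.76 to 2.60 ± 0.39 and 1.47 ± 0.13 CPM. At 24 h Tex10, part of a complex acting on the pre-60S particle, was at 11.5 ± 1.0 CPM in WT and 71.6 ± 1.3 in the libraries labelled CIS-/-. Mdn1, a giant ATPase that strips factors off that particle, was at 4.76 ± 0.15 and 25.1 ± 2.4 CPM at 24 h. In WT it had fallen from 13.7 ± 1.1 CPM unstimulated (log2 fold change −1.53), and with the CIS-/- label it was at 16.8 ± 1.3 unstimulated. Ubtf, the factor that opens rRNA genes for polymerase I, was lower in the libraries labelled CIS-/-, at 74.9 ± 2.8 against 151 ± 6.1 CPM.

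The rule also gave Las1l (15.2 ± 0.66 CPM at 24 h in WT, from 4.04 ± 0.26), Exosc5 (25.6 ± 2.0, from 8.57 ± 0.43) and Zfp622 (31.4 ± 2.0, from 63.4 ± 2.9). At 4 h in WT it gave Rrp7a and Ddx24, which rose by 1.05 and 0.75 on the log2 scale, and Cebpz and Ruvbl2, which changed by −1.84 and −2.43. Between genotypes at 24 h it gave Utp4 (log2 difference 2.27), Nop53 (−0.96) and C1d (−1.10).

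Myc, the transcription factor known to drive this gene class, was at 0.306, 0.0672 and 0.376 CPM in unstimulated WT libraries, 0.305, 0.272 and 0.402 at 4 h, then 0.698, 0.278 and 0.736 at 24 h. Under the CIS-/- label levels were 0.183, 0.127 and 0.129, then 1.22, 0.403 and 0.681, then 3.41, 4.51 and 3.5 CPM. WT levels of Myc overlapped at all 3 times, and the 24 h libraries labelled CIS-/- were above every other library. The log2 difference between genotypes at 24 h was 2.77 (adjusted p = 6.29e-14), at a low level of counts. By 24 h in WT the edgeR test called all 9 tested genes of the Myc network, 3 higher, Myc among them, and 6 lower. Of all genes, 40.7% were called higher and 37.7% lower in that comparison. Of the 9 tested genes of the Myc network, 4 were higher under the CIS-/- label and 4 lower at 24 h, each 44.4% and near the 38.2% and 38.1% of all genes, with Mxd1, which opposes Myc, higher by 0.80 and Mxi1, another such gene, at −1.66.

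Marker lists of other cells differed between genotypes at 24 h in both directions. Of all genes, 38.2% were called higher and 38.1% lower in that comparison. The monocyte and macrophage list, of 8 genes, summed to 540 to 561 CPM in WT and 1009 to 1048 in the libraries labelled CIS-/-, with 2 of the 4 tested genes higher and 0 lower. The erythroid list, of 6 genes, summed to 6.33 to 7.72 CPM and 25.6 to 35.6, with 4 of 4 tested genes higher. The list of 10 cycling genes summed to 39.6 to 43.4 CPM and 67.6 to 70.5, with 2 higher and 2 lower, both below the 191 to 201 CPM of unstimulated WT libraries. The early granulocyte list, of 5 genes, went the other way, at about 11 to 17 CPM in WT and 4.96 to 10.4 under the CIS-/- label, with 1 higher and 3 lower. The eosinophil, basophil and mast cell list, of 6 genes, was at 57.4 to 65.6 CPM in WT and 53.1 to 57.5 under the CIS-/- label. Of its 4 tested genes 1 was higher and 1 lower. Of the 8 neutrophil markers 3 were higher and 5 lower. Their sums overlapped between genotypes, at 32914 to 34280 CPM in WT and 32890 to 37270 under the CIS-/- label. Among the 5 lower were Csf3r, the G-CSF receptor gene (5900 ± 64 and 2326 ± 85 CPM), and Retnlg (516 ± 18 and 86.7 ± 8.7). Both were chosen after their values were seen. In unstimulated libraries the erythroid list was at 37.8 to 40.2 CPM in WT and 104 to 105 in those labelled CIS-/-. The part of such cells in the levels of the ribosome biogenesis genes was not tested.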

How the data were processed

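The authors deposited 1 table of raw read counts per Ensembl gene for 18 libraries, which they made with Trimmomatic, STAR and featureCounts on mm10, per the submitters' processing notes. Their versions, the strand option of the counting and the gene annotation were not given in the sources used here. Gene names and coordinates came from GENCODE M21 (GRCm38).

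Genes were filtered with filterByExpr, which left 11569 genes and 99.9% of the counts. The 6 groups of 3 were fitted in 1 edgeR 4.0.16 quasi-likelihood model (R 4.3.3, TMM factors, robust) with 12 comparisons, and a Benjamini-Hochberg adjusted p under 0.05 over all genes counted as called. Each adjusted p is from this edgeR test, two-sided. SE is the fold change over the square root of F. CPM use TMM-scaled totals. The common biological coefficient of variation was 3.30% (12 residual degrees of freedom), and no pair of replicates was a duplicate (chi-square per degree of freedom 1.29 to 8.46). The pipeline was run on data simulated with as many genes set higher as lower, which cannot check the scaling between groups.

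Values in every library are given, in each role, for the 2 genes with the highest mean CPM and the 1 further gene with the greatest absolute fold change. Ddx21, Rrs1 and Rrp1b were added after their values were seen, and the others are given as means. Other ribosome biogenesis genes named are the 3 highest and 3 lowest called in 3 comparisons with at least 10 CPM. Members and lists were chosen with earlier results of these data known. Alternatives were RLE factors, library totals alone, no low-count filter, DESeq2 1.42.0, the compared groups only, a replicate block and each library left out; leaving out the 6 unstimulated libraries was added after seeing the data. Riok2 had no match.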

Additional observations from a re-analysis of the deposited data

Results flagged for a closer look

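The change with time differed between the genotypes by the edgeR interaction test. From unstimulated to 4 h, 0 genes gave a higher and 7 a lower value under the CIS-/- label relative to WT, against 5.32% and 10.4% of all genes. From unstimulated to 24 h the counts were 17 and 2 (31.6% and 33.1% of all genes), and 11 and 5 with library totals alone. From 4 h to 24 h they were 24 and 1 (33.9% and 32.1% of all genes), and 14 and 5 with totals alone. These directions use the libraries labelled CIS-/-, of which the unstimulated ones held more Cish than WT.

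For the step from 4 h to 24 h the log2 interaction was above 2 for Rrs1 (3.68), Rrp12 (3.20), Gnl3 (3.03), Nop58 (2.87), Noc3l (2.33), Ddx21 (2.15) and Heatr1 (2.02). It was 2.0 for Npm1, 1.99 for Nop14, 1.72 for Dkc1, 1.65 for Rrp1b, 1.49 for Ppan, 1.36 for Nhp2, 1.36 for Mybbp1a and 1.35 for Noc2l. It was 1.23 for Fbl, 1.08 for Nolc1, 1.04 for Wdr43 and 1.04 for Nop16. Smaller values were those of Ncl (0.89), Pes1 (0.87), Tcof1 (0.58), Bysl (0.53) and Nop2 (0.34, which changed sign and did not pass with library totals alone). Nop2 was not the only gene to lose its call, since with totals alone 14 genes were called higher in place of 24. Polr1a was at −1.36. Of the small nucleolar core proteins, Nop58, Dkc1, Nhp2 and Fbl are here, while Nop56, Gar1 and Nop10 did not pass.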

How the results depend on the processing

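Of 246 calls of these genes over the 12 comparisons, 245 held with RLE factors, 236 with DESeq2 and 235 without the low-count filter, and none reversed there. With the compared groups only 188 of 191 held, and without the 6 unstimulated libraries 111 of 112. With library totals alone 215 held, 24 kept their direction but no longer passed and 7 changed sign, of which 2, Ncl and Ebna1bp2 between genotypes, passed the test in the new direction. The 7 were Ncl from 4 h to 24 h in WT (0.40), Nop10 (−0.056), Tcof1 (−0.17) and Ebna1bp2 (−0.31) between genotypes at 24 h, Nop2 (−0.12) and Ebna1bp2 (−0.13) in the interaction at 24 h, and Nop2 (−0.19) in that from 4 h to 24 h. By that scaling 2 genes were lower in unstimulated libraries labelled CIS-/- and 6 lower at 24 h, the interaction at 24 h gave 11 higher and 5 lower, and that from 4 h to 24 h gave 14 higher and 5 lower. Fitting only the compared groups, 1 gene was higher at 4 h in the libraries labelled CIS-/-.

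Leaving out each library in turn, 236 to 244 of the 246 calls held. Between genotypes, counts ranged from 5 to 10 higher and 0 to 1 lower unstimulated, 0 to 1 higher and 1 to 2 lower at 4 h, and 26 to 28 higher at 24 h. The interaction gave 3 to 7 lower at 4 h. Precision is lowest for genes with few counts: over the 18 libraries Utp20, which was not tested, held 98 and Wdr12 148.

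Replicate numbers are shared between groups. Deviations of same-numbered libraries correlated at −0.0775 to 0.0650 (median −0.0105, 45 pairs), and 3 of 18 libraries correlated best with their own number. No pairing by number was detected. This cannot exclude pairing, since the replicates varied little (biological coefficient of variation 3.30%). With the replicate block 246 of 246 calls held.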
